A study of Mus musculus with 14 samples.

Results

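The miR-193 and miR-365 clusters of the mouse genome yield 3 mature miRNAs from the 3p arms of their hairpins, namely miR-193a-3p, miR-193b-3p and miR-365-3p. They were chosen by name, and they are 3 of 900 mature miRNAs listed for whole epididymal tissue and 3 of 677 listed for isolated epithelial cells, where miR-193a-3p carries its older name miR-193-3p. The study sequenced small RNA from the caput (the region nearest the testis), the corpus and the cauda (where spermatozoa are stored) of the epididymis of male Swiss mice aged 8 weeks. Whole tissue was represented by 3 caput, 2 corpus and 3 cauda libraries, each from the pooled tissue of 3 mice. The methods give 2 replicates and state that the libraries were analysed in triplicate, so what the third caput and cauda libraries are is not clear. All of them were used. Epithelial cells were represented by 2 libraries for each region, made from 9 pooled mice a library (12 in the cauda). Blood vessels were perfused with PBS before dissection, and whole tissue keeps the muscle, vessels, immune cells and luminal spermatozoa that surround the epithelium. For the epithelial cells, most spermatozoa were first flushed from the cauda, and those of caput and corpus were removed through incisions and washes. The cells were then released with trypsin and collagenase, filtered and held in culture plates, where fibroblasts and muscle cells attached and were left behind. The paper reports high enrichment of epithelial cells by androgen receptor staining. It found no sperm by a lectin stain of the acrosome and no sperm protein IZUMO1 on blots. The study calls its replicates biological in the methods and technical in the note of a supplementary table, so the p-values below measure the spread between these libraries and no more.

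A miRNA is cut from a hairpin precursor and guides Argonaute proteins to mRNAs that pair with its seed, the bases near its 5′ end that decide most of its targets. The miR-193b and miR-365 cluster is best known from fat tissue, where it favours the brown fat cell fate and restrains muscle genes in the same precursor cells, and miR-193 members are also known to restrain cell growth. Each cluster holds 1 miR-193 and 1 miR-365 hairpin, and such neighbours are commonly transcribed together.

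The mature sequences are shown because they set what the counts can tell apart. They are RefSeq sequences placed on GRCm38.p6, printed 5′ to 3′, with the seed (bases 2 to 8) in capitals.
miR-193a-3p: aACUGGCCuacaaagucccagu
miR-193b-3p: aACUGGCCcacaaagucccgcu
miR-365-3p: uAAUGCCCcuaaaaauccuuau
miR-193a-3p and miR-193b-3p had the same base at 19 of 22 positions and differed by U9C, A20G and G21C, counted from 1 at the 5′ end with the base of miR-193a-3p first. Their seed, ACUGGCC, was held by 2 of 1679 mature names in the RefSeq table, which are these miRNAs themselves. The seed of miR-365-3p, AAUGCCC, was held by 1 of the 1679.

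The 4 hairpins are shown to mark where the counted arm lies, with the mature 3p arm in capitals.
Mir193a: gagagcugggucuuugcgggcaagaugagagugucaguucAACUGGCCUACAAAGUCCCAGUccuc
Mir365-2: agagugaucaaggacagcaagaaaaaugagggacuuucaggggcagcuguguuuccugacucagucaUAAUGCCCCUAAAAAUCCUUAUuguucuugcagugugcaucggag
Mir193b: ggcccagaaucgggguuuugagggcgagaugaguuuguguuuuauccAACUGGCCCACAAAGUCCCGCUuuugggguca
Mir365-1: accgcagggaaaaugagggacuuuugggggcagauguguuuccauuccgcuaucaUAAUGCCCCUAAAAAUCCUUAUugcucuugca
On chromosome 11, Mir193a (chr11:79711969-79712034) and Mir365-2 (chr11:79726400-79726511) lay on the plus strand, 14366 bases apart and between genes, with Rab11fip4 the nearest protein coding gene at 13946 and 28377 bases. On chromosome 16, Mir193b (chr16:13449523-13449601) and Mir365-1 (chr16:13453840-13453926) lay on the plus strand, 4239 bases apart, opposite an intron of the antisense gene Gm15738, with Mrtfb the nearest protein coding gene at 31994 and 36311 bases. The mature miR-365-3p is the same in all 22 bases from Mir365-1 and Mir365-2, so its count is a sum over both clusters and cannot be divided between them.

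Library totals ran from 1243398 to 2135501 counts in whole tissue and from 89039 to 362867 in epithelial cells, and the median total was 7.11 times higher in whole tissue. Levels are given as CPM, counts scaled to a common library total, after TMM adjusted the totals for differences in make-up, and each preparation was scaled on its own. Of the 42 values of the 3 miRNAs, 0 were fractions. A miRNA with a mean count above 10 in a region counted as identified there, and a change was called when limma gave a false discovery rate (FDR) below 0.05 and the change was at least 2-fold.

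In whole tissue all 3 miRNAs were highest in the cauda and lowest in the caput. From caput to cauda miR-193a-3p rose 4.02-fold, miR-193b-3p 3.32-fold and miR-365-3p 3.18-fold. Between corpus and cauda miR-193a-3p and miR-365-3p rose, and miR-193b-3p was 1.75-fold higher in the cauda, under the 2-fold threshold.

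For miR-193a-3p, the more abundant of the miR-193 forms, the caput libraries held 46.3, 50.4 and 46.7 CPM (counts of 72, 73 and 85). The corpus libraries held 65.0 and 63.0 CPM (87 and 96 counts), and the cauda libraries held 155, 211 and 222 CPM (302, 342 and 376 counts). The 3 regions did not overlap, and the lowest cauda library stood well above both corpus libraries. Caput, corpus and cauda averaged 47.8 ± 2.24, 64.0 ± 1.44 and 196 ± 35.5 CPM (SD, n = 3, 2 and 3). By limma the change from caput to cauda was 2.01 on the log2 scale (SE 0.17, adjusted p = 2.1e-06), a 4.02-fold rise with a 95% interval of 3.11 to 5.22. Most of it came after the corpus, where the log2 change to the cauda was 1.59 (SE 0.19, limma adjusted p = 7.2e-05), a 3.0-fold rise. From caput to corpus the log2 difference of 0.42 (SE 0.21) did not pass the test (limma adjusted p = 0.11), although the libraries did not overlap.

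For miR-193b-3p, which shares its seed with miR-193a-3p, the caput libraries held 13.5, 11.0 and 12.1 CPM (21, 16 and 22 counts). The corpus libraries held 22.4 and 24.3 CPM (30 and 37 counts), and the cauda libraries held 35.0, 41.9 and 48.3 CPM (68, 68 and 82 counts). Each region stood clear of the one before it. Caput, corpus and cauda averaged 12.2 ± 1.24, 23.3 ± 1.31 and 41.7 ± 6.67 CPM (SD, n = 3, 2 and 3). By limma the caput to cauda change was 1.73 on the log2 scale (SE 0.22, adjusted p = 4.2e-05), a 3.32-fold rise with a 95% interval of 2.37 to 4.63. The log2 difference was 0.92 from caput to corpus (SE 0.26, limma adjusted p = 0.012) and 0.81 from corpus to cauda (SE 0.21, limma adjusted p = 0.0097). Both were below the FDR threshold, but at 1.90-fold and 1.75-fold they were under the 2-fold threshold and were not called. The first step passed 2-fold when library totals replaced TMM (1.26), with a replicate block (1.01, limma adjusted p = 0.014) and without caput replicate 1 (1.02). The FDR of both steps was lost with DESeq2 (adjusted p = 0.077 and 0.097) and without corpus replicate 2 (limma adjusted p = 0.066 and 0.055), and that of the second also without corpus replicate 1 (limma adjusted p = 0.057).

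For miR-365-3p, the product of both clusters, the caput libraries held 52.1, 31.0 and 32.4 CPM (81, 45 and 59 counts). The corpus libraries held 47.1 and 53.8 CPM (63 and 82 counts), and the cauda libraries held 103, 120 and 139 CPM (201, 195 and 235 counts). The cauda stood clear of the rest, whereas the highest caput library lay between the corpus libraries. Caput, corpus and cauda averaged 38.5 ± 11.8, 50.4 ± 4.75 and 121 ± 17.6 CPM (SD, n = 3, 2 and 3). By limma the change from caput to cauda was 1.67 on the log2 scale (SE 0.20, adjusted p = 3.4e-05), a 3.18-fold rise with a 95% interval of 2.33 to 4.36. From corpus to cauda it was 1.24 (SE 0.22, limma adjusted p = 0.0011), a 2.36-fold rise. The log2 difference of 0.43 from caput to corpus (SE 0.25) did not pass the test (limma adjusted p = 0.16).

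**Figure D1:**
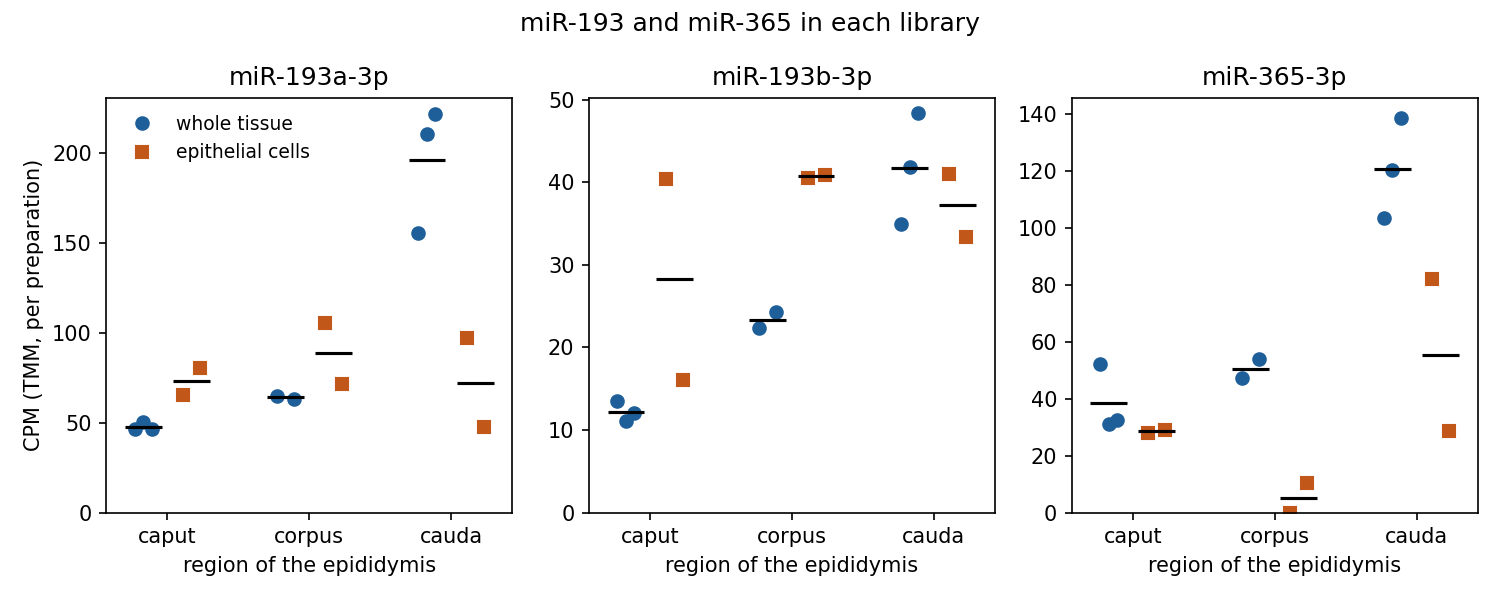
Level of each miRNA in CPM (vertical axis, linear and starting at 0, with a separate range in each panel) in every library of the caput, corpus and cauda. Circles are whole tissue libraries, squares are epithelial cell libraries and bars are means. In whole tissue the cauda libraries lie above all others, while in epithelial cells miR-193a-3p ranges from 47.8 to 105 CPM with the regions overlapping.

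Read against all miRNAs tested in whole tissue, these calls were not rare. From caput to cauda 53.2% of 355 miRNAs were called in either direction and 27.9% were higher in the cauda, and the 3 members, all called, ranked 54, 66 and 70 from the largest rise. From corpus to cauda 27.3% of 341 were called and 14.4% were higher in the cauda, beside 2 of the 3 members. From caput to corpus 29.9% of 334 were called, beside 0 of the 3 members, of which miR-193b-3p was the one with an unadjusted p under 0.05. By edgeR's quasi-likelihood test and by DESeq2 this step gave 0 called members too. The median log2 change of all miRNAs tested was -0.05 from caput to cauda and moved to 0.30 when library totals replaced TMM, and the members' changes stayed called and positive on either scale.

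**Figure D2:**
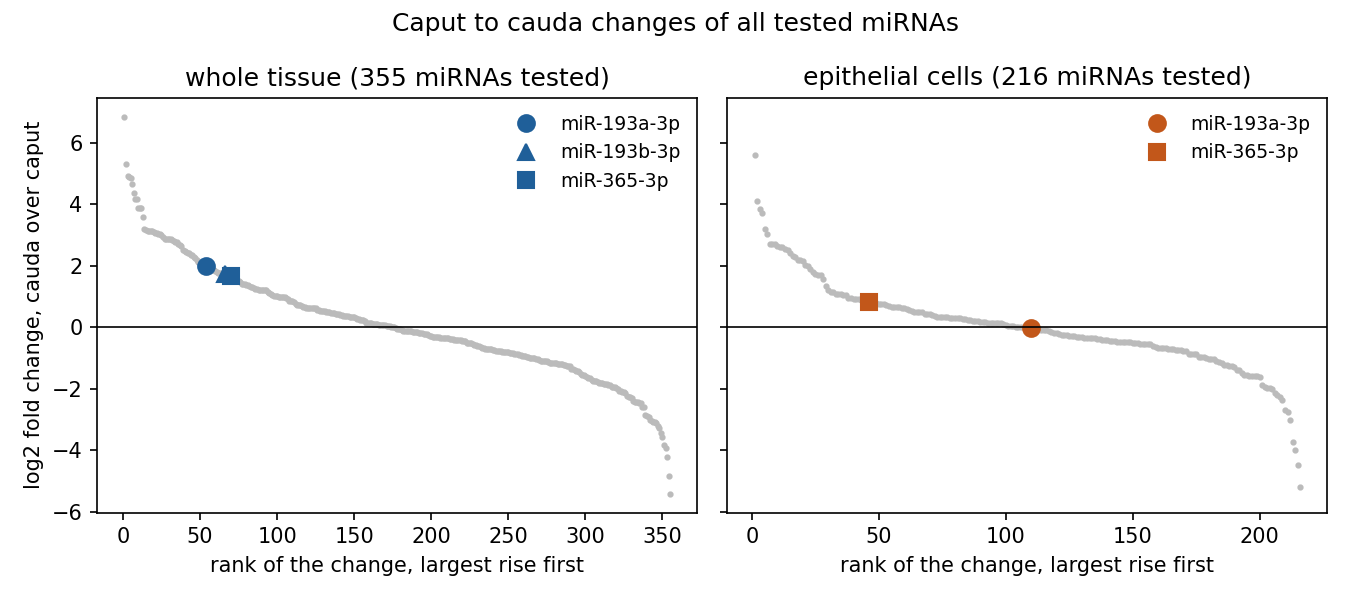
Log2 change from caput to cauda (vertical axis) of each miRNA tested, ordered from the largest rise (horizontal axis, rank), in whole tissue (left) and epithelial cells (right). Grey points are all miRNAs tested and coloured symbols are the members. In whole tissue the members sit close together at ranks 54, 66 and 70 of 355, whereas in epithelial cells miR-365-3p is at rank 46 and miR-193a-3p at rank 110 of 216.

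The order of the mean levels was the same in each region of whole tissue, with miR-193a-3p first, miR-365-3p next and miR-193b-3p last, all 3 being 22 bases long. In the caput the first and second did not differ beyond their spread, since miR-365-3p at 31.0 to 52.1 CPM spanned miR-193a-3p at 46.3 to 50.4. In caput replicate 1 their order was turned, with 81 counts of miR-365-3p against 72 of miR-193a-3p. In the cauda they were apart, with miR-193a-3p at 155 CPM or more and miR-365-3p at 139 or less. Among 360 identified miRNAs, miR-193a-3p ranked 185, 178 and 124 by its mean level, from caput to cauda. miR-365-3p ranked 200, 188 and 145, and miR-193b-3p ranked 268, 231 and 204. In the cauda miR-193a-3p and miR-365-3p lay above the median identified miRNA, at 66.6 CPM, and miR-193b-3p lay below it.

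In epithelial cells the caput to cauda rise was not found for the members that could be tested, at much lower depth. miR-193a-3p was identified in the caput and the cauda with mean counts of 23 and 18 and had a mean count of 10 in the corpus. miR-193b-3p never had a mean count above 10 and was not tested. miR-365-3p was identified in the cauda alone and was not tested between caput and corpus.

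The caput epithelial libraries held 65.3 and 80.5 CPM of miR-193a-3p (21 and 25 counts). The corpus libraries held 105 and 71.5 CPM (13 and 7 counts), and the cauda libraries held 96.8 and 47.8 CPM (26 and 10 counts). All regions overlapped, and the cauda pair held both the lowest library and the next to highest. The means were 72.9 ± 10.7, 88.5 ± 24.0 and 72.3 ± 34.7 CPM from caput to cauda (SD, n = 2 each). By limma the caput to cauda difference was -0.03 on the log2 scale (SE 0.42, adjusted p = 0.96), with a 95% interval of -0.99 to 0.93 in this fit. Its sign turned to above 0 under 5 of 9 alternatives, among them all other scalings (0.18 with library totals), and without cauda replicate 2 (0.41) and caput replicate 2 (0.15). The log2 differences were 0.33 from caput to corpus (SE 0.47, limma adjusted p = 0.66) and -0.36 from corpus to cauda (SE 0.49, limma adjusted p = 0.65), the latter at 0.05 without cauda replicate 2.

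miR-365-3p was at its lowest in the corpus epithelium. Its caput libraries held 28.0 and 29.0 CPM (9 counts each), its corpus libraries 0 and 10.2 CPM (0 and 1 counts) and its cauda libraries 81.9 and 28.7 CPM (22 and 6 counts). The corpus libraries lay below all the others, while caput and cauda overlapped. Both endothelial miRNAs (the arms of miR-126a) ran the same way in these cells, called lower from caput to corpus and higher from corpus to cauda by limma. Their summed level ran from 25517 to 35754 CPM in caput libraries, 13092 to 14322 in corpus libraries and 46640 to 56669 in cauda libraries. The red blood cell miRNAs summed to 129 to 171, 64.9 to 91.9 and 291 to 451 CPM, with 0 of 1 tested called from caput to corpus and 1 of 2 called higher from corpus to cauda, and the part of these cells in the values of miR-365-3p was not tested. At this depth 3 counts in a corpus library were worth 24.3 and 30.6 CPM, so that levels near those of the caput could be missed. From the summed counts, the caput to corpus ratio was 5.66 with an exact 95% interval of 0.893 to 236 (18 against 1 counts), and the cauda to corpus ratio was 13.1 with an interval of 2.16 to 535 (28 against 1), both covering counting error only. By limma the log2 difference from corpus to cauda was 2.76 (SE 0.91, 95% interval 0.67 to 4.86) and was not called (adjusted p = 0.083). It was called when all miRNAs were tested (2.72, limma adjusted p = 0.028), where the caput to corpus difference was not (-1.99, SE 0.77, limma adjusted p = 0.08). From caput to cauda the log2 difference was 0.83 (SE 0.61, limma adjusted p = 0.30, 95% interval -0.57 to 2.23). Without cauda replicate 2 the corpus to cauda difference was 3.38 and the caput to cauda difference 1.47. miR-365-3p passed the filter through the cauda alone, and these fits keep only the cauda library that carried it past. Without cauda replicate 1, which held 22 of the 28 cauda counts, miR-365-3p was not above the count minimum in any epithelial region and could not be tested.

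The epithelial libraries held 40.5 and 16.1 CPM of miR-193b-3p for the caput (13 and 5 counts), 40.6 and 40.9 CPM for the corpus (5 and 4 counts) and 41.0 and 33.4 CPM for the cauda (11 and 7 counts). Both corpus libraries lay inside the cauda range, and caput and cauda overlapped. When all miRNAs were tested with no filter, limma gave a caput to cauda log2 difference of 0.40 (SE 0.56, adjusted p = 0.69) for it.

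Of the tested epithelial miRNAs, 25.9% of 216 were called from caput to cauda, 10.9% of 192 from corpus to cauda and 12.2% of 205 from caput to corpus, beside 0 of the 2 members tested in the first and second and 0 of 1 in the last. edgeR's quasi-likelihood test and DESeq2 called 0 of these members as well under the same filter, and miR-365-3p from corpus to cauda was the one comparison with an unadjusted limma p under 0.05.

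**Figure D3:**
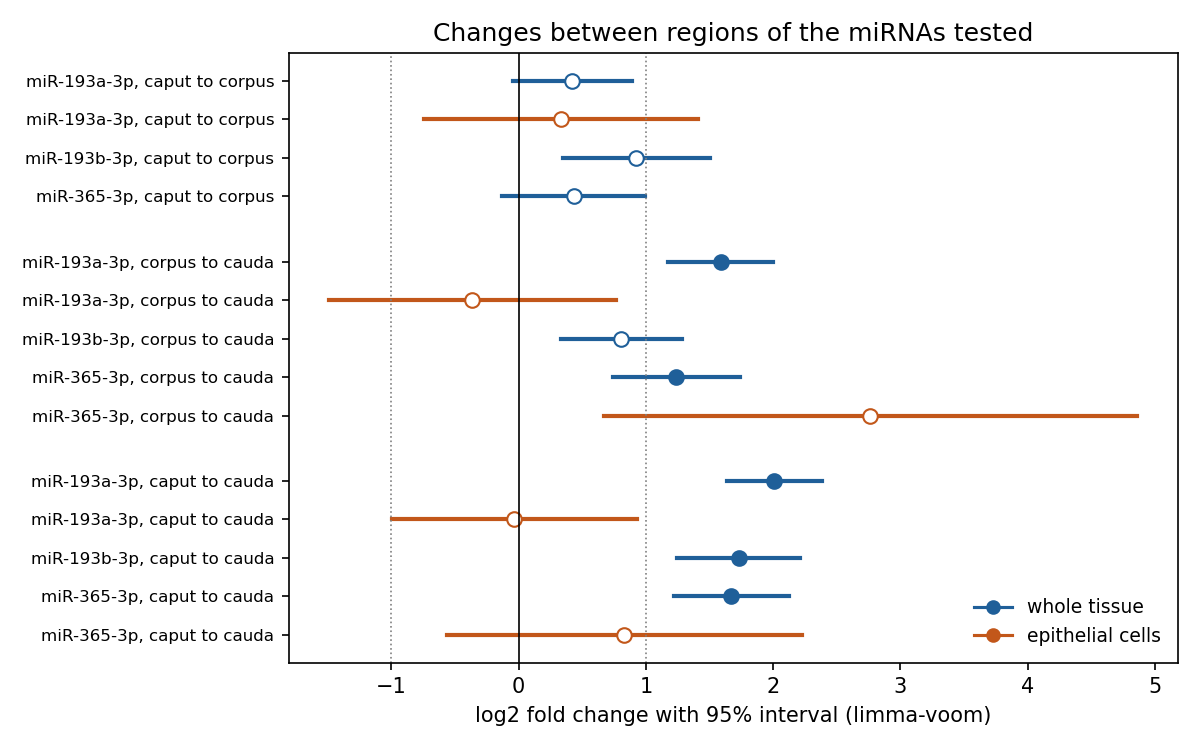
Log2 change between regions (horizontal axis) with its 95% interval from limma for each member and comparison that could be tested, in whole tissue (blue) and epithelial cells (orange). Filled points were called and the dotted lines mark a 2-fold change. The epithelial intervals are wide, and that of miR-193a-3p from caput to cauda (-0.99 to 0.93) lies wholly below the whole tissue interval, which starts at 1.63.

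The difference between the preparations was itself tested, as the change in epithelial cells minus the change in whole tissue, in a limma fit of all 14 libraries over 212 miRNAs. For miR-193a-3p it was -2.06 on the log2 scale from caput to cauda (SE 0.46, adjusted p = 0.0064, 95% interval -3.05 to -1.08), so that its change was 4.18-fold smaller in epithelial cells. From corpus to cauda it was -2.13 (SE 0.51, limma adjusted p = 0.020, 95% interval -3.23 to -1.02). From caput to corpus it was 0.06 (SE 0.51, limma adjusted p = 0.95), a value below 0 with library totals, with DESeq2 and with no filter, and 8.02% of all miRNAs passed there. Of all miRNAs, 28.3% had a difference past the FDR threshold from caput to cauda (8.49% below 0) and 5.19% from corpus to cauda (1.89% below 0, which is 4 miRNAs, against 10 by edgeR and 17 by DESeq2). The caput to cauda value for miR-193a-3p kept its call in all 14 fits that left out 1 library (-2.57 to -1.67). The corpus to cauda value lost its call without corpus replicate 2 of whole tissue (-2.12, limma adjusted p = 0.056), without epithelial cauda replicate 2 (-1.74, limma adjusted p = 0.076) and without epithelial corpus replicate 1 (-1.85, limma adjusted p = 0.12).

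For miR-365-3p the same test gave -0.88 from caput to cauda (SE 0.65, limma adjusted p = 0.34), 1.32 from corpus to cauda (SE 0.74, limma adjusted p = 0.28) and -2.21 from caput to corpus (SE 0.77, limma adjusted p = 0.10). The last passed the threshold without epithelial corpus replicate 2 (-3.16, limma adjusted p = 0.0485). The caput to cauda interval, -2.29 to 0.52, includes 0 and is wide at these counts. With no filter, miR-193b-3p gave -1.42 from caput to cauda (SE 0.54, limma adjusted p = 0.12). Without 1 library the miR-365-3p values ranged from -1.12 to -0.28 from caput to cauda and from 0.37 to 2.29 from corpus to cauda, and none of these passed the threshold, while the fit without epithelial cauda replicate 1 gave no value.

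Within regions, the level of miR-193a-3p in epithelial cells relative to whole tissue was 0.31 on the log2 scale in the caput (SE 0.32, limma adjusted p = 0.42) and 0.37 in the corpus (SE 0.40, limma adjusted p = 0.44). Without 1 library these ranged from 0.05 to 0.64 and from 0.10 to 0.62, and library totals gave 0.71 in the caput (limma adjusted p = 0.0507). In the cauda it was -1.75 (SE 0.33, limma adjusted p = 0.00038), which is 3.37-fold lower in epithelial cells. miR-365-3p was 2.86-fold lower in cauda epithelial cells (log2 -1.52, SE 0.44, limma adjusted p = 0.0082), a call that was lost without epithelial cauda replicate 2 (-0.91, limma adjusted p = 0.12). It was also called lower in the corpus (log2 -2.84, SE 0.59, limma adjusted p = 0.0018), where the epithelial libraries held 1 count in all and the fitted size depends on the prior count. Without epithelial corpus replicate 1 the corpus value was -1.89 (limma adjusted p = 0.0513). In the caput its value of -0.63 (SE 0.48) did not pass the test (limma adjusted p = 0.27). miR-193b-3p had no mean count above 10 in any epithelial region, so it could be compared only with no filter, in a fit of 526 miRNAs. That fit called it higher in caput epithelial cells (log2 1.01, SE 0.40, limma adjusted p = 0.0496). The call was at the edge of both thresholds and rested on 13 and 5 epithelial counts. It was not called in the corpus (0.69, limma adjusted p = 0.23) or the cauda (-0.41, limma adjusted p = 0.36). Of the 212 miRNAs, 39.2% were called between preparations in the cauda, 30.7% in the corpus and 35.4% in the caput. Every whole tissue library belongs to 1 count table and every epithelial library to the other, so the preparation cannot be told apart from the depth of sequencing or from any other difference between the sets, and in either preparation fewer cells that make a miRNA cannot be told apart from less of it per cell.

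The make-up of the 3 miRNAs was compared between the regions of whole tissue and, after the shares had been seen, between the preparations. In whole tissue miR-193b-3p made up 20.4 ± 2.31, 26.7 ± 1.54 and 17.6 ± 0.929% of the counts of both miR-193 forms, from caput to cauda (SD, n = 3, 2 and 3). The corpus libraries, at 25.6 and 27.8%, stood above the highest library of either other region, at 22.6%. The differences were 6.36 percentage points from caput to corpus, -9.11 from corpus to cauda and -2.75 from caput to cauda, each with p = 0.20 by a two-sided exact permutation test (adjusted p = 0.20 over the 3 tests). The smallest p that these tests allow is 0.20 with the corpus and 0.10 between caput and cauda, so this design could not pass a threshold of 0.05.

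In epithelial cells the share of miR-193b-3p had a median of 33.0% over 6 libraries (16.7 to 41.2%), against 19.5% over the 8 whole tissue libraries (16.6 to 27.8%). Averaged within regions, it was 10.1 percentage points higher in epithelial cells (p = 0.0167, two-sided exact permutation test over 600 arrangements within regions). By region the epithelial means were 27.5, 32.1 and 35.5% from caput to cauda (n = 2 each), so that the gap to whole tissue was widest in the cauda. Caput replicate 2 and corpus replicate 1 (27.8%) lay inside the whole tissue range. The share in caput replicate 2 rested on 5 of 30 counts, with an exact 95% interval of 5.64 to 34.7%.

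The share of miR-365-3p among the 3 miRNAs in whole tissue was 38.6 ± 6.99, 36.6 ± 2.22 and 33.8 ± 1.49% from caput to cauda (SD, n = 3, 2 and 3). In epithelial cells it was 22.0 ± 1.52, 4.17 ± 5.89 and 31.7 ± 7.92% (SD, n = 2 each). Averaged within regions it was 17.0 percentage points lower in epithelial cells (p = 0.0117, adjusted p = 0.0167 over both shares, two-sided exact permutation test). The cauda pair, at 37.3 and 26.1%, spanned the whole tissue cauda range of 32.2 to 35.2%, while 0 of 18 counts in corpus replicate 1 allow a share of up to 18.5% (exact 95% interval). The shares were compared between preparations after these values had been seen, so those p-values are descriptive. The epithelial counts carry older miRNA names, and a difference in annotation cannot be told apart from the preparation.

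**Figure D4:**
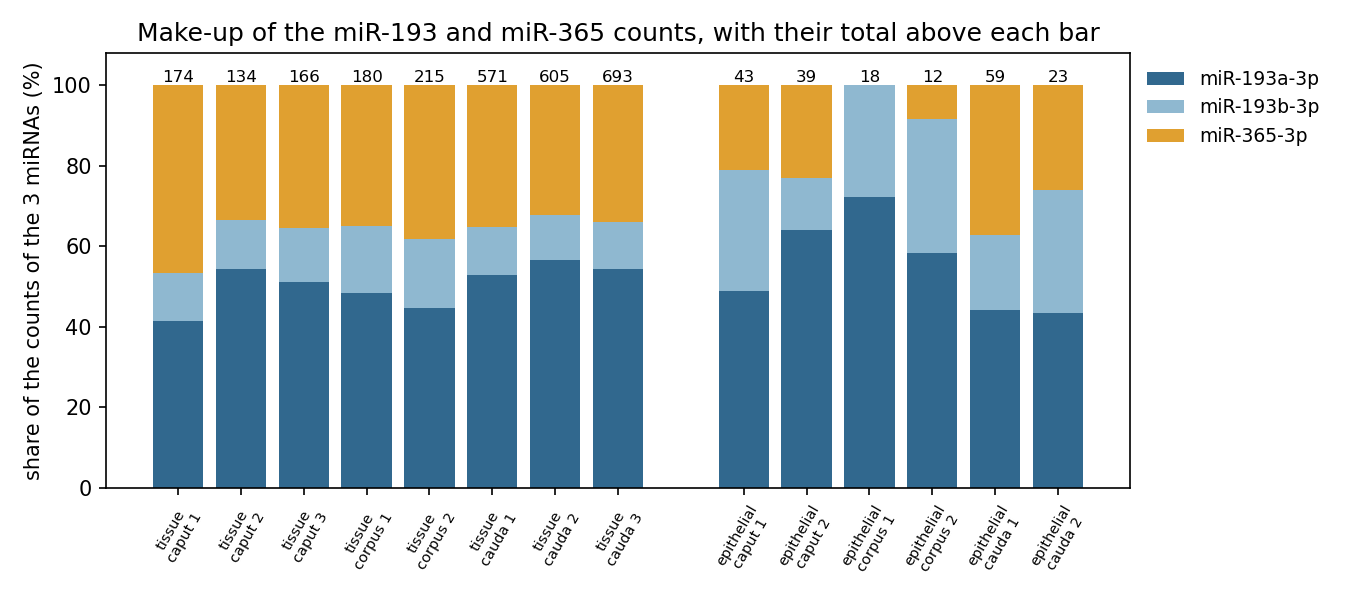
Share of the summed counts of the 3 miRNAs (vertical axis, percent) taken by each member in every library, with the summed count printed above each bar. In whole tissue miR-365-3p takes 32.2 to 46.6% of each bar, and in the epithelial corpus, with 18 and 12 counts in all, miR-365-3p takes 0 and 8.33%.

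The 5p arms of the same hairpins, where listed, were hardly seen. Whole tissue values of miR-193b-5p and epithelial values of miR-365-1-5p and miR-365-2-5p were not analysed here. miR-193a-5p had counts of 0, 0 and 1 in the whole tissue caput, 1 in each corpus library and 0, 0 and 6 among the cauda libraries. The 5p arm is what tells the miR-365 hairpins apart, but miR-365-1-5p had 1 count in all whole tissue libraries together and miR-365-2-5p had 1, 2 and 5 counts in caput, corpus and cauda, too few for a test. miR-193b-5p was listed for epithelial cells, where it had 0 counts, and miR-193a-5p had 2, 0 and 2 counts there.

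The miRNAs whose levels ran most like each member were sought among the other 359 identified in whole tissue, by Pearson's r of log2(CPM + 1) over the 8 libraries. These values describe libraries that share 3 regions, and an order of regions in common raises r by itself. For miR-193a-3p they were miR-409-3p (r = 0.989), miR-145a-3p (r = 0.988) and miR-486a-5p (r = 0.983), with miR-486b-5p tied. For miR-193b-3p they were miR-434-3p (r = 0.986) and miR-486a-5p and miR-486b-5p (r = 0.984 for each), forms that have the same counts and cannot be separated. For miR-365-3p they were miR-145a-5p (r = 0.991), miR-541-5p (r = 0.982) and miR-145a-3p (r = 0.981). These were picked for the highest r, so no other miRNA could exceed them. The members ranked from 13 to 29 among the 359 for each other. Their r was 0.954 between miR-193a-3p and miR-365-3p, 0.949 between miR-193b-3p and miR-365-3p and 0.944 between the miR-193 forms. miR-145a-5p, a miRNA of smooth muscle, ran at 297 ± 87.1, 389 ± 4.24 and 1284 ± 353 CPM from caput to cauda (SD, n = 3, 2 and 3). miR-409-3p, from a large imprinted miRNA cluster, rose by 1.40 on the log2 scale from caput to cauda (limma adjusted p = 2.5e-05).

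Other miRNAs known to favour brown fat were compared with miR-193b-3p and miR-365-3p in whole tissue. Of 9 others, 8 were tested from caput to cauda, of which 2 rose and 0 fell by limma, edgeR and DESeq2 alike, where 27.9% of all tested rose. The median log2 change was -0.05, beside -0.05 over all miRNAs tested. At an unadjusted limma p under 0.05, 3 were higher and 3 lower. The lower ones, miR-30b-5p, miR-203-3p and miR-328-3p, had limma adjusted p-values of 0.0015, 0.025 and 0.0011 but changes under 2-fold. Those that rose were miR-196a-5p, which acts on a Hox gene that restrains brown fat (log2 4.67, SE 0.21, limma adjusted p = 6e-08), and miR-378a-3p, encoded in a gene of mitochondrial regulation (log2 1.31, SE 0.28, limma adjusted p = 0.0018). In epithelial cells miR-196a-5p also rose (log2 4.11, SE 0.35, limma adjusted p = 0.00029) and miR-455-5p fell by 1.59 on the log2 scale (SE 0.53, limma adjusted p = 0.044), a call that DESeq2 did not make (-1.70, adjusted p = 0.13). Of 8 miRNAs known to restrain brown fat, 3 rose and 0 fell by limma from caput to cauda in whole tissue, against the same 27.9% of all that rose. By edgeR or DESeq2 0 fell, and the median log2 change was 0.15. At an unadjusted limma p under 0.05, 4 were higher and 2 lower. The lower ones, miR-27b-3p and miR-34a-5p, had limma adjusted p-values of 0.0473 and 0.011 but changes under 2-fold. Those called higher were miR-133a-3p and miR-133b-3p, which are muscle miRNAs, and miR-155-5p, a miRNA of immune cells. The first changed by 3.20 on the log2 scale (SE 0.85, limma adjusted p = 0.0056), the second by 3.18 (SE 1.11, limma adjusted p = 0.023) and the third by 2.35 (SE 0.83, limma adjusted p = 0.025), which DESeq2 did not call (1.86, adjusted p = 0.098). Of the 8, 6 had a mean count above 10 in the caput or the corpus. miR-133b-3p and miR-155-5p entered the test through the cauda alone, so the filter favoured their rise. In epithelial cells 0 of the 6 tested from this list were called from caput to cauda by limma, edgeR or DESeq2 (2 higher at an unadjusted limma p under 0.05), where 25.9% of all tested were called.

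Along the whole tissue regions some markers of other cell types rose and others were not called, while most epithelial ones fell. All 3 smooth muscle miRNAs (miR-143-3p and both arms of miR-145a) rose from corpus to cauda and from caput to cauda, and their summed level ran from 53224 to 65973 CPM in caput libraries, 76250 to 80344 in corpus libraries and 223153 to 249078 in cauda libraries. All 6 striated muscle miRNAs rose from caput to cauda, with sums of 33.5, 34.5 and 33.5 CPM in the caput libraries, 62.0 and 176 in those of the corpus and 146, 510 and 1072 in those of the cauda. In the same order the cauda libraries held 155, 211 and 222 CPM of miR-193a-3p and leukocyte sums of 1943, 1974 and 1979 CPM. Their smooth muscle (245679, 223153 and 249078 CPM), red blood cell (106, 241 and 122) and germ cell sums (11611, 8959 and 10237) did not rise in that order. Of the 6 striated muscle miRNAs, 2 had a mean count above 10 in the caput or the corpus. The others entered the caput to cauda test through the cauda alone, where they were high, so the filter favoured a rise. From corpus to cauda 0 of the 6 were called, where 27.3% of all tested were. In this list the largest fitted rises were those of miR-208b-3p, miR-499-5p and miR-206-3p, made in heart and slow or developing skeletal muscle. Their cauda means were 79.5, 13.9 and 12.0 CPM against caput means of 0.23, 0.37 and 0, too near 0 for a fold. Against 27.9% of all miRNAs tested, 3 of 3 red blood cell, 2 of 4 leukocyte, 1 of 3 fibroblast, 0 of 2 endothelial and 4 of 6 germ cell miRNAs rose from caput to cauda by limma, and 1 of the endothelial pair was higher at an unadjusted p under 0.05 (0 called by edgeR and DESeq2). edgeR and DESeq2 each called 3 of the 4 leukocyte miRNAs, and DESeq2 called 5 of the 6 germ cell miRNAs. Of the 3 red blood cell miRNAs, 2 had a mean count above 10 in the caput or the corpus. Of the 6 epithelial miRNAs, 5 fell by limma (4 by DESeq2), from sums of 21881 to 23681 CPM in the caput to 8185 to 9893 in the cauda. miR-206-3p was at 0 in every caput library, no other listed marker was at 0 over a whole region there, and their part in the members' rise was not tested.

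In epithelial cells, where miR-193a-3p did not pass the test in any comparison, 0 of 3 smooth muscle miRNAs were called from caput to cauda by limma, edgeR or DESeq2, and 0 had an unadjusted p under 0.05. Their sums ran from 144511 to 195696, 210020 to 212227 and 158204 to 336764 CPM along the regions. Thus these miRNAs were abundant in preparations from which the attached muscle cells had been left on the plate. The 5 striated muscle miRNAs listed there summed to 361 to 377, 582 to 592 and 310 to 469 CPM in the same order of regions. The sums of the 6 epithelial miRNAs were 26042 to 28510, 38705 to 40513 and 33642 to 41128 CPM, each above the sums for the same region of whole tissue, with the tables scaled separately. miR-205-5p took a large part of these sums in epithelial cells, and without it, a sum added after these values had been seen, the other 5 held 15233 to 17326 CPM in the epithelial caput against 20075 to 21754 in the whole tissue caput, so that the order turned there. In the corpus they held 17868 to 18199 against 15513 to 16184 CPM, and in the cauda 13408 to 18642 against 7244 to 8734. Of these 6, 0 were called from caput to cauda by any of the 3 tools (2 higher and 2 lower at an unadjusted limma p under 0.05), and neither were, from caput to cauda, the endothelial pair that was called between the other regions (2 higher at an unadjusted p under 0.05) nor the 1 striated muscle miRNA tested. Red blood cell and leukocyte miRNAs rose from caput to cauda in these cells too, in 2 of 2 and 2 of 2 tested by limma, as did 1 of 3 fibroblast and 2 of 5 germ cell miRNAs, where 13.9% of all tested were called higher. DESeq2 called 1 of the 2 red blood cell miRNAs, edgeR called 1 of the 2 leukocyte miRNAs and both called 3 of the 5 germ cell miRNAs. Of the 2 red blood cell miRNAs, 1 was above the count minimum outside the cauda. The part of these cell types in the members' values was not tested.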

How the data were processed

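Small RNA libraries of mouse epididymis were analysed from 2 count tables, 8 libraries of whole tissue and 6 of epithelial cells, grouped by the preparation and region given in the sample labels. The authors trimmed and screened the reads, aligned them to mm10 and to mature miRNAs of miRBase, and deposited expected counts for each mature miRNA without normalizing them, and the epithelial values carry an added 0.001. The submitters' processing notes name CASAVA 1.8.2, Bowtie 1.1.1 and limma. How reads that match several miRNAs were divided is not given in the sources used here.

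The constant was removed and values were rounded, which changed a library total by at most 0.00337%, and 0 columns were left unused. Counts were scaled by TMM (edgeR 4.0.16) and tested with limma-voom (limma 3.58.1, R 4.3.3) across all miRNAs with a mean count above 10 in at least 1 of the regions compared, without a replicate block and with p-values adjusted over those miRNAs by Benjamini and Hochberg's method. A change was called with an FDR below 0.05 and at least 2-fold, after the study's own filter. For tests between preparations, 30 older names were matched by adding the letter a, which left 608 shared names. The 212 miRNAs tested had a mean count above 10 in at least 1 region of each preparation, and differences of changes were called by the FDR alone. Shares were compared by exact permutation tests (SciPy 1.17.1), and intervals of shares are exact binomial ones that cover counting error only, since reads carried no molecular identifiers.

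Alternatives were DESeq2 size factors or library totals for TMM, edgeR's quasi-likelihood test or DESeq2's Wald test (DESeq2 1.42.0), no filter, at least 10 counts in every library, the 2 regions alone, a replicate block, and each library left out in turn. Same-numbered libraries were not treated as pairs, since the labels do not say what a number marks. In whole tissue the correlations of their deviations from the region means were not all over 0.1, and in epithelial cells they had both signs. The fits were tested on simulated data in which known changes had been placed. Named miRNAs are the members, the opposite arms of their hairpins, the 3 most alike miRNAs for each member, and the 3 largest rises and 3 largest falls called from caput to cauda in whole tissue within each list of brown fat and striated muscle miRNAs. Any other is named as a member of a list or chosen after its values were seen. The members, the lists and the tests were chosen with earlier results of these data known, so no list is independent support.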

Additional observations from a re-analysis of the deposited data

Results flagged for a closer look

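For miR-193a-3p, the changes along the epididymis differed between the preparations by a test of the difference itself. The change in epithelial cells minus the change in whole tissue was -2.06 on the log2 scale from caput to cauda (limma adjusted p = 0.0064) and -2.13 from corpus to cauda (limma adjusted p = 0.020). The first held in all 14 fits that left out 1 library, with adjusted p-values of 0.0012 to 0.044, and the second was lost in 3 of them. Both share the cauda libraries, and the epithelial values rest on 7 to 26 counts a library.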

How the results depend on the processing

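In whole tissue the calls of all 3 members from caput to cauda, and of miR-193a-3p and miR-365-3p from corpus to cauda, held under all 8 alternatives and all 8 fits that left out 1 library. In epithelial cells the caput to cauda difference of miR-193a-3p turned positive with DESeq2 size factors (0.013), library totals (0.179), edgeR (0.016), DESeq2's test (0.039) and the replicate block (0.004), and ranged from -0.494 to 0.41 without 1 library. Its difference between preparations from caput to corpus turned negative with library totals (-0.262), DESeq2 (-0.018) and no filter (-0.192), ranging from -0.214 to 0.338 without 1 library. miR-365-3p from corpus to cauda in epithelial cells was called with no filter (2.72), also by edgeR (3.50), and with the crossed block (2.77, limma adjusted p = 0.012). It ranged from 1.77 to 3.69 without 1 library (5 of 6 fits, since without epithelial cauda replicate 1 it fell under the filter). miR-193b-3p from caput to corpus in whole tissue was called with library totals (1.26), and ranged from 0.92 to 1.02 without 1 library.

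The replicate block called miR-193b-3p from caput to corpus in whole tissue (1.01), gave 102, 101 and 187 calls there (100, 93 and 189 without it) and 27, 22 and 52 in epithelial cells (25, 21 and 56), and changed no other call of a member. The same-number correlations were 0.16, 0.108 and 0.073 between caput and cauda of whole tissue, 0.219 and 0.101 between corpus and cauda, and -0.015 and -0.056 between caput and corpus. In epithelial cells they were 0.199 between caput and corpus, -0.181 between caput and cauda and -0.139 between corpus and cauda. Crossing the cauda numbers turns the sign of both epithelial cauda correlations and was added once the data had been seen. It gave 40, 32 and 64 epithelial calls, from caput to corpus, corpus to cauda and caput to cauda in that order here and below.

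At least 10 counts in every library gave 64 calls from caput to corpus and 115 from caput to cauda in whole tissue, 28 from caput to cauda in epithelial cells, and no value for the epithelial members. No filter gave 53 and 37 epithelial calls for the first 2 steps, 48 and 33 by edgeR. Without 1 library the epithelial calls ranged from 10 to 30, 4 to 27 and 26 to 60. The differences between preparations numbered 17, 11 and 60. The first became 7 with library totals and with no filter. The second became 22 with library totals and with edgeR, 32 with DESeq2, 20 with no filter and 17 with names as each table gives them, which gives no value for miR-193a-3p. They ranged from 4 to 21, 9 to 23 and 37 to 68 without 1 library. Calls between preparations with no filter were 182 (caput), 190 (corpus) and 199 (cauda). With the filter there were 65 in the corpus, 41 to 66 without 1 library. Without 1 library miR-193a-3p from corpus to cauda ranged from -0.615 to 0.048 in epithelial cells and from -2.64 to -1.74 as the difference between preparations. miR-365-3p ranged from 0.80 to 1.47 from caput to cauda in epithelial cells, from -3.16 to -1.25 as the difference from caput to corpus, and, epithelial over whole tissue, from -3.79 to -1.89 in the corpus and -1.64 to -0.91 in the cauda. Where a fit left 1 library in a region, that library is assumed to vary like the others. Library totals changed the calls from caput to corpus in whole tissue from 47 higher and 53 lower to 76 and 35, and from caput to cauda from 99 and 90 to 115 and 65. In epithelial cells they changed from 13 and 12 to 18 and 9, and from 30 and 26 to 39 and 19. The cause of these differences was not tested.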
